A study of Mus musculus with 18 samples.

Results

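Germinal center B cells and plasma cells were compared in mice whose B cells lack both de novo DNA methyltransferases. The comparison held the 6 Dnmt3-deficient RNA-seq libraries of 2 cell types, chosen by the genotype and cell type in the labels, out of 18 libraries in the series. There were 3 libraries of germinal center B cells (GCB) and 3 of bone marrow plasma cells (BMPC). The same cell types of Dnmt3-sufficient littermates (3 libraries of each cell type) were set beside them. Dnmt3-deficient mice were Dnmt3afl/fl Dnmt3bfl/fl with 1 copy of a B lineage Cre allele, so that Cre recombinase removed the floxed catalytic parts of both genes in the B lineage. Dnmt3-sufficient mice carried both pairs of floxed alleles and no Cre. All mice were of a mixed background of B6 and 129S4 and were 8 to 12 weeks of age at the start. They had been immunized under the skin with phycoerythrin (PE), a fluorescent protein that serves as the antigen, in complete Freund's adjuvant 30 days before. GCB were sorted from draining lymph nodes as B220+ Fas+ GL7+ cells that bound PE, with cells of 2 mice pooled for each library. BMPC were sorted from bone marrow as CD138+ cells of 1 mouse for each library and were not selected for binding of PE. Tissue, antigen specificity and pooling differ between the cell types along with differentiation and cannot be told apart from it. GCB and BMPC came from different mice, so "rose" and "fell" mean higher and lower in BMPC than in GCB. Each library was made from 5000 sorted cells. The deficient GCB libraries were female, female and male, and the deficient BMPC libraries female, male and male.

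Germinal center B cells divide fast, mutate their antibody genes, and compete for help from T cells by presenting antigen on MHC class II. Plasma cells leave the cell cycle, lose most proteins of the B cell surface, and turn into factories that secrete antibody. Prdm1 (Blimp-1) represses the B cell program, Irf4 is needed for the switch, and Xbp1 drives expansion of the endoplasmic reticulum (ER), partly through the unfolded protein response, in which promoters with the ER stress response element (ERSE) are activated. De novo methyltransferases place DNA methylation at new sites, while Dnmt1 copies it after replication.

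Values are FPKM (fragments per kilobase of exon, scaled by all reads counted on genes), given for replicates 1, 2 and 3 of a group in that order. Changes are BMPC minus GCB on the log2(FPKM + 1) scale with the moderated standard error of limma (n = 3 libraries per cell type). That error pools both cell types and is drawn toward a trend over genes, so it does not give the spread of the BMPC libraries alone. To pass, a gene needed a change of at least 1 and a limma adjusted p not over 0.05. The GCB libraries held 8084088 to 8824079 reads on genes. The BMPC libraries were shallower, with 1632925, 1355231 and 2265945 reads, and detected 8865, 7096 and 7877 genes against 11077 to 12115 in GCB. The 50 most abundant genes took 32.8% to 35.0% of reads in BMPC and 12.9% to 13.1% in GCB, so that the other genes shared a smaller part of a smaller library. The median SD of log2(FPKM + 1) between libraries was 0.93 in BMPC and 0.31 in GCB. Values at 0 in BMPC are therefore read against a floor of 3 reads per library, and "at least" before a fold means that it was computed against this floor.

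Of the 9861 genes tested, 554 (5.62%) were higher and 2343 (23.8%) lower in BMPC. All 3 BMPC libraries lay above all 3 GCB libraries in 1015 genes (10.3%) and below them in 3768 (38.2%). The median change over all genes tested was -0.96, or -0.71 with libraries scaled by the median of ratios, under which 710 genes were higher and 1839 lower. Changes of gene groups are given beside this median. In bulk libraries, fewer cells of a type and less RNA per cell cannot be told apart. Of the lower genes, 948 had all BMPC libraries at or under the floor, and of the higher genes, 63 had all GCB libraries there. Of the genes tested, 5331 had a read in all 3 BMPC libraries and 765 in none, while 9336 had a read in all 3 GCB libraries. Without GCB replicate 1, 2 or 3 the lower genes numbered 1512, 1397 or 1516.

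**Figure D1:**
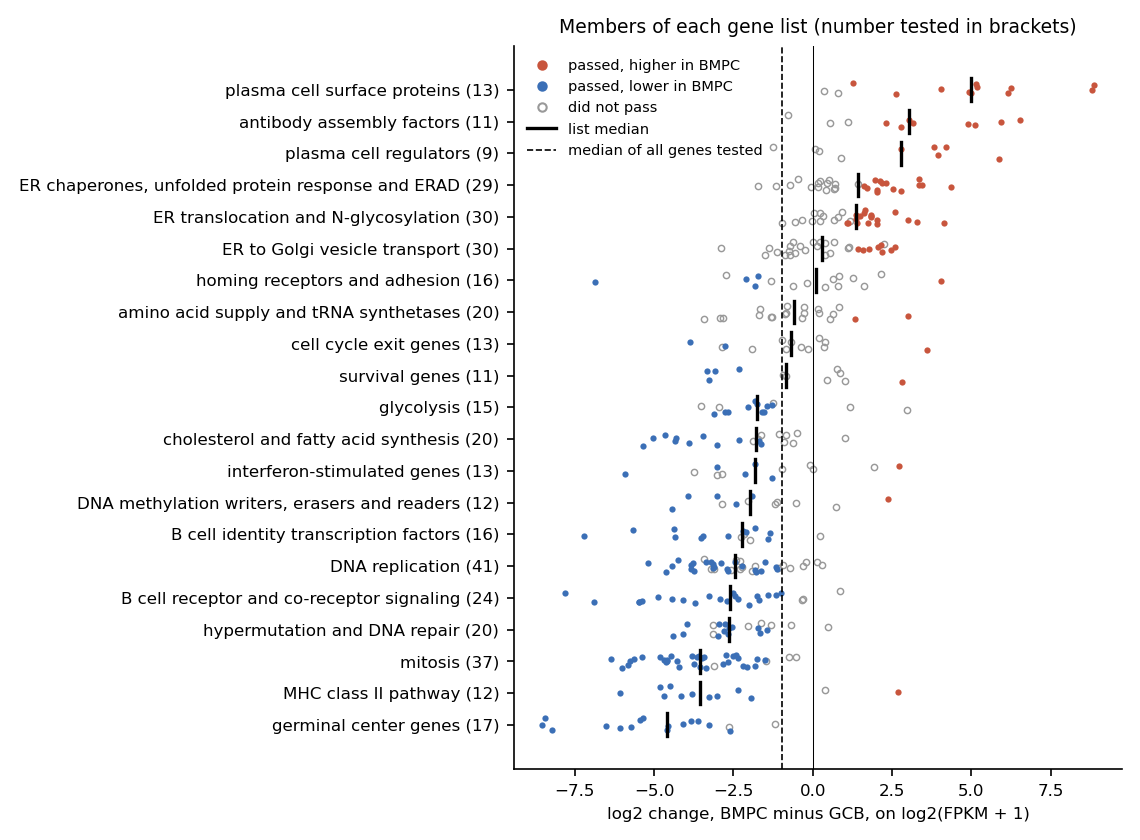
Log2 change (Dnmt3-deficient BMPC minus GCB, log2(FPKM + 1) scale) of each tested member of each gene list, 1 point per gene, filled where it passed, with a line at the list median and a dashed line at the median of all genes tested. Lists such as plasma cell surface proteins (11 of 13 higher) lie on the higher side, while germinal center genes (15 of 17) and mitosis (33 of 37) lie on the lower side.

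The libraries carried the markers of their labels. Xbp1, on mm9 at chr11:5420662-5425896, stood at 13.3, 10.9 and 10.5 FPKM in GCB and 622, 835 and 743 in BMPC, 63.4-fold higher in BMPC by the mean (log2 change 5.87 ± 0.25, adjusted p = 8.01e-05). Sdc1 at chr12:8778129-8800521 encodes CD138, the protein used for the sort, and read 0 FPKM in all 3 GCB libraries and 34.5, 108 and 92.6 in BMPC (log2 change 6.15 ± 0.61, adjusted p = 0.00169). Mki67 at chr7:142881471-142908062, a protein of dividing cells, read 99.3, 55.6 and 111 FPKM in GCB and 17.1, 3.66 and 24.1 in BMPC (log2 change -2.74 ± 0.69, adjusted p = 0.0243). For each of these genes the 2 cell types did not overlap. Mki67 transcripts were still detected in every BMPC library, most in replicate 3. Jchain, which joins antibody units into polymers, made up 0.118% to 0.145% of all reads in GCB and 8.20%, 9.80% and 6.26% in BMPC. Of the germinal center markers, Bcl6, the repressor that maintains the germinal center state, read 33.1, 81.1 and 44.4 FPKM in GCB and 0, 0.898 and 0 in BMPC (log2 change -5.34 ± 0.60, adjusted p = 0.00228). Irf4 was the plasma cell marker that did not separate the cell types, with 4.76, 7.53 and 6.82 FPKM in GCB and 14.5, 0.315 and 27.9 in BMPC (adjusted p = 0.905), and BMPC replicate 2 lay below every GCB library.

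**Figure D2:**
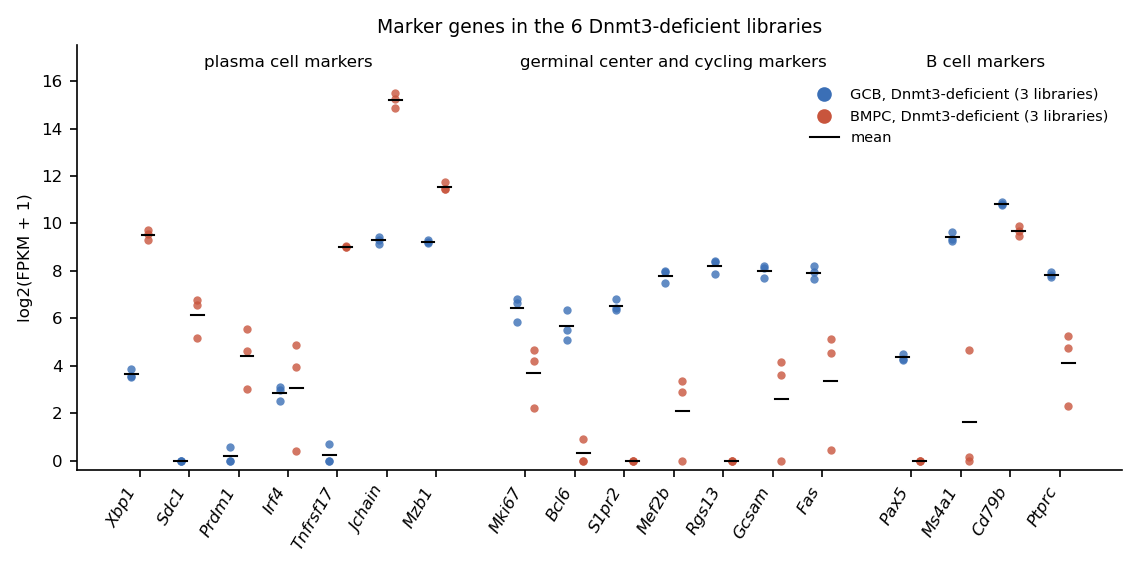
Levels of plasma cell, germinal center and B cell markers as log2(FPKM + 1) in each of the 6 Dnmt3-deficient libraries, 1 point per library, with a line at the mean of each cell type. Xbp1, Sdc1 and Jchain lie higher in all 3 BMPC libraries and Mki67 and Pax5 lower, while the Irf4 points of the 2 cell types overlap.

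Markers of other bone marrow cells were also higher in the BMPC libraries, and their part in the results was not tested. Of the 8 erythroid markers tested, 7 passed as higher, and their summed level was 9.58 to 19.9 FPKM in GCB and 2653 to 6558 in BMPC. Most of it came from the carbonic anhydrases, Car1 at 3185, 1564 and 1342 and Car2 at 2524, 1423 and 1128 FPKM in BMPC. The globin Hba-a2 read 413, 119 and 44.4 there, and the red cell membrane gene Slc4a1 was listed at 0 in all 6 libraries. Of the 7 early B cell markers tested, 5 passed as higher and 1 as lower, and the whole list summed to 295 to 409 in GCB and 480.1 to 878 in BMPC. Dntt, the DNA polymerase of antibody gene assembly in precursors, read 0, 0.0581 and 0 FPKM in GCB and 315, 450.4 and 305 in BMPC, while Rag2, Vpreb1 and Vpreb2 had reads only in BMPC replicate 2 and Rag1 only in replicate 3. Neutrophil markers were listed at 0 in every GCB library and summed to 21.3 to 701.5 in BMPC, with Elane, Ltf, Camp, Mmp8, Mmp9 and Cebpe listed at 0 in all 6 libraries. S100a8 read 9.37, 152 and 322 in BMPC, with the least in replicate 1. Of the macrophage and monocyte markers, only Cd68 passed, at 10.2, 14.5 and 19.7 FPKM in GCB and 98.4, 158 and 145 in BMPC, while C1qa, C1qb, C1qc, Mertk and Cd14 were listed at 0. T and NK cell markers summed to 91.7 to 135 in GCB and 175 to 297 in BMPC. Cd3g read 53.9, 98.8 and 99.2 in BMPC and Nkg7 38.4, 26.3 and 78.7, while Cd4 and Cd8a stood at or near 0 in all 6 libraries and Lck was lower in BMPC. The plasmacytoid dendritic cell list, at 92.1 to 118 in GCB and 1842 to 2303 in BMPC, was made up mostly of Ly6d, at 1850.5, 2158 and 1682 in BMPC, and its defining gene Siglech read 0, 39.7 and 21.9. Of the 5 members of this list tested, 2 passed as higher and 1 as lower. The largest log2 change of the list, 6.45, was that of Cox6a2, also a subunit of cytochrome c oxidase. Megakaryocyte and platelet markers did not exceed a sum of 0.85. The stains of the sort held antibodies to CD11b, CD11c, CD90.2 and Ly6G, used to remove other cells, and red cells of the marrow had been lysed.

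**Figure D3:**
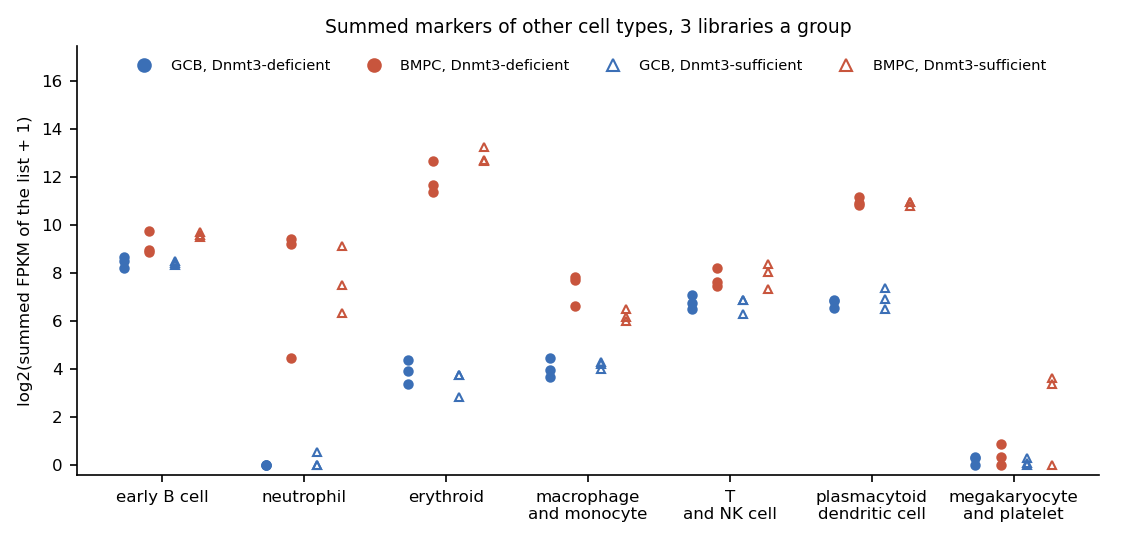
Summed FPKM of the marker lists of other cell types as log2(sum + 1), 1 point per library, for both cell types and both genotypes (3 libraries a group). In Dnmt3-deficient libraries the erythroid sum is at most 19.9 in GCB and at least 2653 in BMPC, while the megakaryocyte and platelet sum is at or under 0.85.

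The targeted genes cannot be checked at this resolution, because the values are sums over whole genes and the floxed part is not reported apart. Dnmt3a read 0.213, 0.22 and 0.362 FPKM in GCB and 0.0544, 3.08 and 0.549 in BMPC, which for BMPC is 1, 47 and 14 reads over 11259 bases of exon, and it did not reach the level needed for testing. Dnmt3b read 0.805, 0.744 and 1.1 FPKM in GCB and 0, 1.88 and 9.29 in BMPC (0, 11 and 91 reads in BMPC, adjusted p = 0.523). In Dnmt3-sufficient BMPC, Dnmt3a read 0.768, 0 and 0.734 and Dnmt3b 1.37, 0 and 0, so the values of both genotypes overlapped.

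Among 9 regulators of the plasma cell state, 5 rose and none fell, with a median change of 2.77 against -0.96 for all genes tested. The largest rise was that of Xbp1, given above. Prdm1 read 0, 0.478 and 0 FPKM in GCB and 23.8, 45.2 and 7.15 in BMPC (log2 change 4.21 ± 0.75, adjusted p = 0.00718). Creb3l2, an ER-bound transcription factor that enters the nucleus after cleavage, read 0, 0.142 and 0 FPKM in GCB and 17.4, 19.9 and 9.95 in BMPC (log2 change 3.95 ± 0.51, adjusted p = 0.00297). Bhlha15 (Mist1), a factor of secretory cells, read 0, 1.24 and 0 FPKM in GCB and 34.2, 3.59 and 39 in BMPC, with BMPC replicate 2 far under the other two (log2 change 3.83 ± 0.95, adjusted p = 0.0235). Ell2, which favors the secreted form of antibody heavy chain transcripts, read 2.9, 4.77 and 6.88 FPKM in GCB and 40.4, 28.1 and 45.9 in BMPC (log2 change 2.77 ± 0.49, adjusted p = 0.00712). Each of these was above GCB in every BMPC library. Eaf2, a partner of Ell2, read 97.4, 105 and 94.6 FPKM in GCB and 168, 191 and 194 in BMPC, a separation without overlap but under the minimum change (log2 change 0.89 ± 0.20, adjusted p = 0.0172). Atf6, Irf4 and Zbtb20 did not pass.

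Of the proteins of the plasma cell surface, 11 of 13 members tested were higher and 0 lower, with a median of 4.98. Tnfrsf17 (BCMA), the receptor that carries the survival signal of APRIL, read 0, 0.609 and 0 FPKM in GCB and 523, 516 and 518 in BMPC (log2 change 8.79 ± 0.39, adjusted p = 8.01e-05), nearly the same in the 3 BMPC libraries. Ly6c2 read 2.85, 2.16 and 7.22 FPKM in GCB and 1608, 2388 and 2678 in BMPC (log2 change 8.87 ± 0.42, adjusted p = 9.79e-05), and its close relative Ly6c1 read 1.4, 1.3 and 0.926 FPKM in GCB and 87.9, 178 and 296 in BMPC. These genes can share reads. Cd28, a costimulatory receptor better known from T cells and used by long-lived plasma cells, read 0, 1.01 and 1.86 FPKM in GCB and 58.2, 72.2 and 56.8 in BMPC (log2 change 5.14 ± 0.57, adjusted p = 0.00215). Cd93, linked to maintenance of plasma cells in the marrow, read 0.199, 0.596 and 0 FPKM in GCB and 25.6, 36.2 and 87.3 in BMPC (log2 change 5.16 ± 0.64, adjusted p = 0.00266). Epcam read 0 FPKM in all 3 GCB libraries and 31.8, 55.9 and 13.9 in BMPC, at least 195-fold higher, and Tigit 0.125, 0.514 and 2.12 FPKM in GCB and 27.3, 52.1 and 15.1 in BMPC. Slc3a2, the heavy chain of the CD98 amino acid transporter, was present in GCB and higher in BMPC (24.2, 25.8 and 27.8 FPKM in GCB and 167, 128 and 214 in BMPC, log2 change 2.64 ± 0.30, adjusted p = 0.00228). Tnfrsf13b (TACI) was above GCB in replicates 1 and 2 only (30, 41.9 and 49.5 FPKM in GCB and 76.9, 174 and 23.9 in BMPC), and Cd38 was listed at 0 in BMPC replicate 2. Lag3 was too low to be tested.

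Factors that assemble antibody were higher in 8 of 11 tested (0 lower, median 3.03). Jchain read 632, 562 and 689 FPKM in GCB and 39019.8, 46609 and 29771 in BMPC, 61.3-fold higher by the mean (log2 change 5.92 ± 0.16, adjusted p = 3.91e-05). Mzb1, a chaperone partner for antibody heavy chains, read 632, 591 and 583 FPKM in GCB and 2758, 3391 and 2792 in BMPC (log2 change 2.30 ± 0.11, adjusted p = 0.000113). Both were already abundant in GCB. Fkbp11, a prolyl isomerase of the ER, read 0, 1.46 and 2.79 FPKM in GCB and 265, 136 and 206 in BMPC (log2 change 6.54 ± 0.60, adjusted p = 0.00134). Fam46c, which stabilizes mRNA of secreted proteins by adding to the poly(A) tail, read 9.58, 4.45 and 3.57 FPKM in GCB and 186, 225 and 249.9 in BMPC (log2 change 5.10 ± 0.42, adjusted p = 0.00099). Pycr1, of proline synthesis, read 0.0324, 1.3 and 0.49 FPKM in GCB and 44.8, 31.7 and 62.8 in BMPC (log2 change 4.91 ± 0.58, adjusted p = 0.00249). Prdx4 and Txndc5, which serve disulfide formation, changed by 3.03 ± 0.33 and 2.78 ± 0.32. The oxidase gene Ero1lb did not pass (11.5, 8.26 and 7.79 FPKM in GCB and 17.3, 36.7 and 3.54 in BMPC, adjusted p = 0.637), and neither did Ero1l. Apart from Jchain and Igll1, immunoglobulin genes were not analysed here. By symbol, the deposited values held at most 1 gene of the antibody heavy or light chains. The read totals that scale FPKM, and the shares of reads given here, therefore leave out antibody chain transcripts without an entry. The paper reports that antibody transcripts made up a far larger share of mRNA in BMPC than in GCB. The effect of this on the comparison was not tested.

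ER chaperones and the genes of the unfolded protein response and of ER-associated degradation showed 14 of 29 higher and 0 lower (median 1.42). The rise was uneven. Derl3, a channel component of ER-associated degradation, read 13.5, 15.8 and 12.3 FPKM in GCB and 218, 293 and 441 in BMPC (log2 change 4.37 ± 0.34, adjusted p = 0.000796). Pdia4, a disulfide isomerase, read 43.4, 70.1 and 35.8 FPKM in GCB and 347, 686 and 633 in BMPC (log2 change 3.45 ± 0.37, adjusted p = 0.00205). Edem2, which trims mannose from misfolded glycoproteins, read 23.2, 37.4 and 28.2 FPKM in GCB and 254, 393 and 276 in BMPC (log2 change 3.34 ± 0.30, adjusted p = 0.0013). Hsp90b1 (GRP94) read 138, 177 and 133 FPKM in GCB and 628, 986 and 996 in BMPC (log2 change 2.52 ± 0.24, adjusted p = 0.00145). Its fellow chaperone Hspa5 (BiP) was abundant in both and overlapped between cell types, at 375, 568 and 377 FPKM in GCB and 494, 1044 and 659.8 in BMPC (log2 change 0.69 ± 0.30, adjusted p = 0.127). Calr read 168, 251 and 218 FPKM in GCB and 212, 238 and 299 in BMPC and P4hb 75.9, 128 and 99.2 FPKM in GCB and 141, 124 and 129 in BMPC, and neither passed. The stress sensor Eif2ak3 (PERK) read 9.76, 8.14 and 10.1 FPKM in GCB and 0.582, 0.842 and 9.48 in BMPC (adjusted p = 0.153). Atf4, its translational target, read 114, 104 and 117 FPKM in GCB and 189.9, 84.3 and 126 in BMPC (adjusted p = 0.71). Ern1, which splices Xbp1 mRNA, was too low to be tested. Without BMPC replicate 3, 1 member, the stress kinase Eif2ak3, passed as lower.

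The promoters of these genes are where ERSE was searched, in the window from 250 bases before to 50 after each start (RefSeq, GRCm38.p6, both strands). ERSE was spelled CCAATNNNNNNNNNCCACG, which contains CCAAT, and the related ERSE-II ATTGGNCCACG. Of 27025 promoters, 37 (0.137%) held ERSE and 12 (0.0444%) ERSE-II. In the ER list, ERSE stood in 8 of 27 matched promoters (29.6%) and ERSE-II in 2, those of Herpud1 and Dnajb11. The matches are printed with the motif in capitals and flanking bases in lower case (5 a side for ERSE, 9 for ERSE-II), because they let the members that rose be set beside those that did not.
Derl3, chr10:75893237-75893265, minus strand: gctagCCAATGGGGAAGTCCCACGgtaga
Hsp90b1, chr10:86705633-86705661, minus strand: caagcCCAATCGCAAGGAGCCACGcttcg
Hsp90b1, chr10:86705528-86705556, plus strand: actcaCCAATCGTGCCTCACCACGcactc
Dnajc3, chr14:118937822-118937850, plus strand: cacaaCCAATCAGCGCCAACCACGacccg
Canx, chr11:50325795-50325823, minus strand: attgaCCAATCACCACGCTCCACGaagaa
Hspa5, chr2:34772020-34772048, plus strand: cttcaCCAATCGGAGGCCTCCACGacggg
Pdia6, chr12:17266486-17266514, plus strand: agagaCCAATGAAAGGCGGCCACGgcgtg
Calr, chr8:84847070-84847098, plus strand: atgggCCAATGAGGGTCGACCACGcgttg
Syvn1, chr19:6046527-6046555, plus strand: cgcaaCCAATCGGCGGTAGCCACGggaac
Creld2, chr15:88819515-88819543, minus strand: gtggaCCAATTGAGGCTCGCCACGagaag
Ero1lb, chr13:12565677-12565705, minus strand: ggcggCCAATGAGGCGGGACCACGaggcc
Herpud1, chr8:94386368-94386396, plus strand: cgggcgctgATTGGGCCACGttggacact
Dnajb11, chr16:22857843-22857871, plus strand: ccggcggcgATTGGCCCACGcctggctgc

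The first 5 matches belong to 4 genes that rose, Derl3, Hsp90b1, Dnajc3 (11.2, 4.7 and 6.49 FPKM in GCB and 37.3, 31.7 and 38.8 in BMPC) and Canx (221, 205 and 225 FPKM in GCB and 678, 901 and 579.5 in BMPC). Hspa5, Pdia6, Calr and the ubiquitin ligase gene Syvn1 hold the same letters and did not pass, and Syvn1 read 42.2, 61.8 and 46.1 FPKM in GCB and 9.85, 28.6 and 35.7 in BMPC (log2 change -1.15 ± 0.53, adjusted p = 0.142). Creld2 and Ero1lb are in the antibody assembly list (2 of 11 promoters with ERSE), and of these Creld2 rose (17.8, 40.4 and 16.5 FPKM in GCB and 168, 228 and 242 in BMPC, log2 change 3.15 ± 0.41, adjusted p = 0.00306). Of the genes with ERSE-II, Herpud1 rose, at 315, 367 and 311 FPKM in GCB and 1225, 1134 and 1505 in BMPC (log2 change 1.95 ± 0.15, adjusted p = 0.000796), and the chaperone Dnajb11 did not pass, at 32.4, 47.1 and 48.7 FPKM in GCB and 37.3, 32.4 and 54.8 in BMPC (log2 change -0.05 ± 0.36, adjusted p = 0.922). In the ER list, 4 of 8 members with ERSE rose (median 1.20) and 8 of 18 without it (median 1.05). Over all 7562 genes tested with a matched promoter, 5 of 15 with ERSE (Derl3, Creld2, Hsp90b1, Dnajc3 and Canx, all members of these lists) and 391 of 7547 without it were higher. A match is a run of letters and not a measured binding site.

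**Figure D4:**
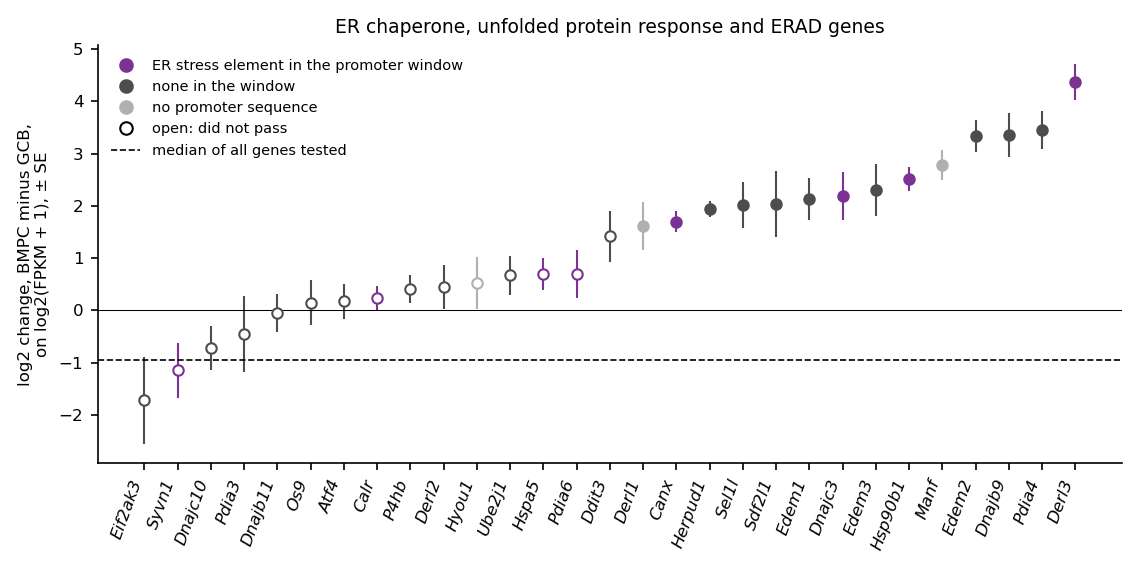
Log2 change (BMPC minus GCB, log2(FPKM + 1) scale) with its standard error for each tested member of the ER chaperone, unfolded protein response and degradation list, colored by whether the promoter window holds ERSE. Members with ERSE lie from -1.15 (Syvn1) to 4.37 (Derl3), among members without it, and the ERSE-II of Herpud1 and Dnajb11 is not marked.

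Genes for entry into the ER and the first steps of glycosylation rose in 18 of 30 members, with 0 lower (median 1.36). Every tested subunit of the signal peptidase other than Sec11a was higher. Sec11c read 209, 205 and 204 FPKM in GCB and 1794, 1967 and 2352 in BMPC (log2 change 3.29 ± 0.14, adjusted p = 8.01e-05). Spcs1 read 121, 88.9 and 127 FPKM in GCB and 809, 874 and 989.8 in BMPC (log2 change 2.99 ± 0.20, adjusted p = 0.000428), and Spcs3 changed by 2.59 ± 0.26. Ssr4, a subunit of the translocon-associated complex, had the largest change of the list, with 169, 109.5 and 133 FPKM in GCB and 2262, 2259 and 2630.3 in BMPC (log2 change 4.13 ± 0.19, adjusted p = 8.01e-05), and Ssr1, Ssr2 and Ssr3 also rose. Among the translocon subunits, Sec61b read 227, 183 and 221 FPKM in GCB and 642, 634 and 859 in BMPC (log2 change 1.75 ± 0.19, adjusted p = 0.00205), and Sec61a1 and Sec61g passed too. Of the oligosaccharyltransferase, Ostc and Dad1 rose by 1.82 ± 0.21 and 1.84 ± 0.37, while its large subunits Rpn1 (68.7, 95.7 and 88 FPKM in GCB and 63.1, 86.3 and 119 in BMPC, adjusted p = 0.915), Stt3a (adjusted p = 0.976) and Rpn2 (adjusted p = 0.101) did not pass.

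Vesicle transport between ER and Golgi rose in 8 of 30 members, with 0 lower and a median of 0.30. Tmed10, a cargo receptor, read 49.9, 64.2 and 53.9 FPKM in GCB and 301, 348 and 379 in BMPC (log2 change 2.59 ± 0.22, adjusted p = 0.00106). Kdelr2, which returns chaperones from the Golgi, read 71.7, 86.9 and 61.4 FPKM in GCB and 324, 425 and 476 in BMPC (log2 change 2.46 ± 0.24, adjusted p = 0.00169). Arf4, Kdelr1, Tmed2, Cope, Sec24d and Lman1 also passed. Coat subunits such as Copb2 (92.7, 104 and 79 FPKM in GCB and 21.7, 0.97 and 42.6 in BMPC, adjusted p = 0.0867) and Copa (38.1, 44.7 and 42.4 FPKM in GCB and 21, 47.9 and 22.1 in BMPC) did not. Without BMPC replicate 2, 1 member (Copb2) passed as lower, and without BMPC replicate 3, 2 (Copb2 and Copg1).

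Of 20 genes for amino acid supply and tRNA synthetases, 2 rose and 0 fell (median -0.58), beside 5.62% higher and 23.8% lower of all genes tested. Each left-out library brought the higher count to 0 or 1. The lower count was 3, 2 and 3 without BMPC replicates 1, 2 and 3, 6 in the fit to all 18 libraries and 3 with a quality weight per library. Asns, which makes asparagine, read 58.3, 56.6 and 47.6 FPKM in GCB and 204, 76.2 and 172 in BMPC (log2 change 1.35 ± 0.41, adjusted p = 0.045). Chac1, which degrades glutathione under stress, read 5.05, 1.66 and 0 FPKM in GCB and 16, 48 and 8.72 in BMPC (log2 change 2.99 ± 0.91, adjusted p = 0.0459). The synthetase Wars read 34.6, 42 and 39.3 FPKM in GCB and 41.1, 0 and 0.149 in BMPC (adjusted p = 0.109), with 2 BMPC libraries near 0 and the first at the GCB level. Phgdh, of serine synthesis, read 212, 203 and 197 FPKM in GCB and 249.7, 147 and 326 in BMPC.

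Germinal center genes were lower in 15 of 17 members tested and higher in none, with a median change of -4.60 (-5.01 with genes at the floor set to their bound). Id3, an inhibitor of E proteins, read 358, 321 and 359 FPKM in GCB and 0 in all 3 BMPC libraries, at least 184-fold lower (log2 change -8.44 ± 0.38, adjusted p = 8.01e-05). Rgs13, which damps chemokine receptor signals, read 325, 231 and 336 FPKM in GCB and 0 in all 3 BMPC libraries (log2 change -8.20 ± 0.41, adjusted p = 0.000116). S1pr2, the receptor that holds cells in the follicle, read 84.5, 112 and 80 FPKM in GCB and 0 in all 3 BMPC libraries (log2 change -6.53 ± 0.47, adjusted p = 0.000647). Each of these genes was listed at 0 in all BMPC libraries and well over the floor in all GCB libraries. Neil1, a base excision glycosylase, read 259.7, 289.6 and 229 FPKM in GCB and 7.36, 0 and 5.65 in BMPC. Mef2b, an activator of Bcl6, read 243, 252 and 176 FPKM in GCB and 9.17, 6.32 and 0 in BMPC. Fas, a protein used for the GCB sort, read 198, 289.9 and 247 FPKM in GCB and 0.34, 34 and 22.3 in BMPC (log2 change -4.56 ± 1.17, adjusted p = 0.0258). The members that did not pass were Foxo1 (21.9, 19.4 and 23 FPKM in GCB and 7.61, 12.9 and 6.99 in BMPC, adjusted p = 0.0896) and Ezh2, a histone methyltransferase, which in BMPC replicate 2 lay at the GCB level (51.2, 48 and 76.5 FPKM in GCB and 2.82, 51.5 and 2.97 in BMPC, adjusted p = 0.0938).

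Transcription factors of B cell identity were lower in 12 of 16 members and higher in none (median -2.23), or 9 lower with median of ratios scaling and 7 without GCB replicate 2. Spib read 129.7, 256 and 93.2 FPKM in GCB and 0 in all 3 BMPC libraries (log2 change -7.20 ± 0.54, adjusted p = 0.000691). Ciita, the switch for MHC class II, read 44.7, 65.3 and 42.6 FPKM in GCB and 0 in all 3 BMPC libraries (log2 change -5.67 ± 0.50, adjusted p = 0.00125). Pax5, which holds B cells to their lineage, read 18.5, 18.1 and 21.6 FPKM in GCB and 0 in all 3 BMPC libraries, at least 13.1-fold lower (log2 change -4.35 ± 0.47, adjusted p = 0.00208). Ebf1 read 54.9, 64.2 and 54.2 FPKM in GCB and 1.82, 7.1 and 0 in BMPC (log2 change -4.37 ± 0.79, adjusted p = 0.00759). Pou2af1, a coactivator of antibody gene transcription, stayed abundant at 229.6, 372 and 202 FPKM in GCB and 96.7, 95.8 and 114 in BMPC while passing as lower (log2 change -1.34 ± 0.28, adjusted p = 0.0126). Ikzf1 (53.9, 45.9 and 65 FPKM in GCB and 27.9, 18.4 and 4.02 in BMPC, adjusted p = 0.0671), Mef2c and Foxp1 did not pass, and Relb read 4.53, 2.05 and 2.92 FPKM in GCB and 0.752, 4.3 and 10.7 in BMPC.

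The B cell receptor and its co-receptors were lower in 21 of 24 members and higher in none (median -2.60), or 15 lower and 1 higher with median of ratios scaling, and 12 lower without GCB replicate 2. Ms4a1 (CD20) read 612, 794 and 651 FPKM in GCB and 24.6, 0 and 0.1 in BMPC (log2 change -7.81 ± 1.21, adjusted p = 0.0046). Cd22, an inhibitory co-receptor, read 109, 187 and 151 FPKM in GCB and 0, 0 and 0.906 in BMPC (log2 change -6.88 ± 0.51, adjusted p = 0.000667). Cr2, the complement receptor CD21, read 34.3, 48.1 and 50.8 FPKM in GCB and 0 in all 3 BMPC libraries (log2 change -5.48 ± 0.50, adjusted p = 0.00132). Of the signaling chains of the receptor, Cd79b fell, at 1823, 1728 and 1885 FPKM in GCB and 823, 942 and 704.3 in BMPC (log2 change -1.15 ± 0.13, adjusted p = 0.00224), while Cd79a did not pass, at 1253, 1040.5 and 1261 FPKM in GCB and 962, 841 and 997 in BMPC (log2 change -0.34 ± 0.13, adjusted p = 0.0824). The kinase Syk read 71.4, 67.7 and 70.8 FPKM in GCB and 3.9, 0.276 and 4.69 in BMPC (log2 change -4.43 ± 0.66, adjusted p = 0.00412). Fcrla, an ER-resident relative of Fc receptors, read 132, 139 and 159 FPKM in GCB and 188, 322 and 295 in BMPC, above GCB in every BMPC library but under the minimum change (log2 change 0.87 ± 0.26, adjusted p = 0.0422).

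On the MHC class II pathway, 10 of 12 members were lower and 1 higher (median -3.54). H2-DMb2, a peptide loader, read 319, 361 and 371 FPKM in GCB and 1.55, 6.85 and 5.96 in BMPC (log2 change -6.08 ± 0.49, adjusted p = 0.00089). H2-Aa read 1022, 969.9 and 999.6 FPKM in GCB and 57.8, 51.1 and 115 in BMPC (log2 change -3.82 ± 0.31, adjusted p = 0.00095). H2-Ab1 read 1915, 2292 and 2011 FPKM in GCB and 188, 114 and 451 in BMPC (log2 change -3.27 ± 0.46, adjusted p = 0.0035). H2-Eb1 read 1080.4, 1096 and 1018 FPKM in GCB and 83.6, 17.1 and 139 in BMPC (log2 change -4.16 ± 0.69, adjusted p = 0.00583). Transcripts of the presenting molecule itself remained detected in each BMPC library. Cd74, the invariant chain that escorts the same molecules, did not pass, at 6141, 5714 and 6339 FPKM in GCB and 7084, 7532 and 9612 in BMPC (log2 change 0.40 ± 0.12, adjusted p = 0.0385). Ctss, the protease that degrades the invariant chain, rose, at 261, 261 and 275 FPKM in GCB and 1853, 1619.8 and 1684 in BMPC (log2 change 2.69 ± 0.12, adjusted p = 8.01e-05).

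Of the homing and adhesion genes, 1 of 16 was higher and 4 were lower (median 0.10), a lower share near the 23.8% of all genes tested. With median of ratios scaling 2 were higher and 2 lower, and with a library left out 1 to 3 were higher and 1 to 4 lower. Cxcr5, the receptor for the follicle, read 107, 106 and 134 FPKM in GCB and 0 in all 3 BMPC libraries (log2 change -6.86 ± 0.45, adjusted p = 0.000428). Cxcr4, the receptor for the marrow chemokine, read 24.3, 22.6 and 27 FPKM in GCB and 10.1, 26 and 37.7 in BMPC, with overlapping groups (adjusted p = 0.823). Ccr10, a mucosal homing receptor, was listed at 0 in GCB and read 7.81, 6.84 and 0.256 in BMPC (adjusted p = 0.071). Among 11 survival genes, 1 rose and 4 fell (median -0.85). Tnfrsf13c, the BAFF receptor, read 377, 439 and 403 FPKM in GCB and 50.1, 58.2 and 21 in BMPC (log2 change -3.33 ± 0.39, adjusted p = 0.00253), the reverse of Tnfrsf17 above. Bcl2l1 (Bcl-xL) read 11.3, 8.69 and 6.7 FPKM in GCB and 0 in all 3 BMPC libraries (log2 change -3.28 ± 0.42, adjusted p = 0.00302). Bcl2 passed as higher, at 0.0465, 0.192 and 0 FPKM in GCB and 14.1, 0.858 and 14.1 in BMPC (log2 change 2.80 ± 0.85, adjusted p = 0.0464), a call that was lost without any of the GCB libraries or BMPC replicate 1. Mcl1, on which plasma cells depend, read 39.5, 26.2 and 55.3 FPKM in GCB and 72.4, 130.1 and 51.5 in BMPC (adjusted p = 0.135).

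DNA replication genes were lower in 24 of 41 members and higher in none, with a median change of -2.46 (20 lower with median of ratios scaling). The count of lower members was 9 to 27 with a library left out, and each of the 3 GCB libraries moved it by more than 1.5 times. Cdc45, part of the replicative helicase, read 104, 69.3 and 111 FPKM in GCB and 2.29, 0 and 4.32 in BMPC (log2 change -5.18 ± 0.69, adjusted p = 0.0033). Rpa1, which covers single-stranded DNA, read 303, 299 and 318 FPKM in GCB and 14.6, 22.8 and 26.4 in BMPC (log2 change -3.83 ± 0.30, adjusted p = 0.000796). Rrm2, of nucleotide synthesis, read 534, 571 and 586 FPKM in GCB and 162, 188 and 144 in BMPC (log2 change -1.78 ± 0.17, adjusted p = 0.0015), and the clamp Pcna read 541, 437 and 565 FPKM in GCB and 339.7, 228 and 156 in BMPC (log2 change -1.15 ± 0.29, adjusted p = 0.0258). All 6 members of the core MCM helicase passed, from Mcm3 at -4.61 ± 1.22 to Mcm5 at -2.46 ± 0.27. Cdt1, Tyms, Gins1 and Rpa3 had the smallest changes and did not pass.

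Mitosis genes were lower in 33 of 37 members and higher in none, with a median of -3.54 (28 lower with median of ratios scaling). With a library left out 17 to 34 were lower, and each GCB library moved the count by more than 1.5 times. Ncaph, of the condensin complex, read 71.6, 79.5 and 93 FPKM in GCB and 0 in all 3 BMPC libraries, at least 168-fold lower, and Cenpe, a kinetochore motor, 59.7, 46.9 and 55 FPKM in GCB and 0 in all 3 BMPC libraries, at least 235-fold lower. Cdc20, which activates the anaphase ligase, read 89.9, 83.1 and 78 FPKM in GCB and 4.05, 0 and 0 in BMPC (log2 change -5.62 ± 0.73, adjusted p = 0.00309). Ccnb1, cyclin B, kept a level well over the floor, at 339, 354 and 360.1 FPKM in GCB and 77.2, 89.8 and 82.3 in BMPC (log2 change -2.07 ± 0.19, adjusted p = 0.00128). So did Ube2c, at 219, 218 and 219 FPKM in GCB and 39.5, 57.9 and 45 in BMPC (log2 change -2.20 ± 0.25, adjusted p = 0.00225). Ccna2 (44.1, 24.1 and 48.9 FPKM in GCB and 57.3, 27.6 and 10 in BMPC, adjusted p = 0.559), Pttg1 (39.3, 32.2 and 47.7 FPKM in GCB and 14.1, 13.6 and 61.2 in BMPC), Cenpa (115, 97.5 and 88.9 FPKM in GCB and 60.1, 15 and 47.1 in BMPC) and Ndc80 (96.3, 87.3 and 88.6 FPKM in GCB and 2.5, 54 and 5.01 in BMPC) did not pass.

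Promoters of cell cycle genes were searched for E2F motifs (TTTGGCGC, TTTCCCGC and TTTCGCGC), for the cell cycle homology region CHR (TTTGAA) and for CCAAT in the same window and on both strands. E2F letters stood in 2.12% of all 27025 promoters, in 4.54% of those of the 7562 genes tested and in 12 of 34 matched replication genes (35.3%). CHR stood in 20.2% of all promoters, in 14.3% of those of genes tested and in 20 of 30 mitosis genes (66.7%), and CHR together with CCAAT in 7.97%, 6.15% and 19 of 30 (63.3%). Examples from members that fell are printed with the motif in capitals and 10 flanking bases (GRCm38.p6). The E2F letters of opposite strands overlap in Mcm5 and Mcm6.
Mcm5, chr8:75109346-75109373, plus strand: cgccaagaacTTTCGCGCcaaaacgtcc
Mcm6, chr1:128359798-128359825, minus strand: ggcgtatgctTTTGGCGCgaaaagtgcg
Cdc6, chr11:98908003-98908030, minus strand: ccccaggcgaTTTCCCGCtctccaccgg
Mki67, chr7:135716480-135716505, minus strand: agcgccagaaTTTGAAccgccgtttt
Mki67, chr7:135716462-135716487, minus strand: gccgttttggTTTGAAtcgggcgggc
Cdk1, chr10:69352968-69352993, minus strand: gattggctccTTTGAAcgtctacgtg
Cdc20, chr4:118437346-118437371, minus strand: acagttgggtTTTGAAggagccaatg

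The replication gene Mcm5 read 302, 283 and 287 FPKM in GCB and 39.4, 52.1 and 68.6 in BMPC. Mcm6 read 77.3, 188 and 94.4 FPKM in GCB and 17.3, 22 and 7.48 in BMPC. Cdc6, which loads the helicase, read 53.8, 61.5 and 70.4 FPKM in GCB and 25.6, 15.1 and 23.8 in BMPC. Among replication genes, 9 of 12 with E2F letters fell (median -3.00) and 11 of 22 without them (median -2.22). The mitotic kinase gene Cdk1 read 108, 96.8 and 109 FPKM in GCB and 51, 49.3 and 18.1 in BMPC (log2 change -1.52 ± 0.44, adjusted p = 0.0411). Among mitosis genes, 18 of 20 with CHR fell (median -3.56) and 9 of 10 without it (median -3.13). Over all 7562 genes tested with a matched promoter, 108 of 343 with E2F letters and 1701 of 7219 without them were lower, and 309 of 1085 with CHR and 1500 of 6477 without it.

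Of 13 genes linked to exit from the cell cycle, 1 rose and 2 fell (median -0.67), beside 5.62% higher and 23.8% lower of all genes tested. Cdkn1b (p27), an inhibitor of cyclin-dependent kinases, read 1.56, 2.17 and 1.06 FPKM in GCB and 29.8, 33.5 and 27 in BMPC (log2 change 3.598 ± 0.49, adjusted p = 0.00336), with no overlap. Cdkn2d (p19), another inhibitor, fell, at 52.8, 53.3 and 53.7 FPKM in GCB and 4.17, 6.98 and 11.5 in BMPC (log2 change -2.76 ± 0.46, adjusted p = 0.00584), and so did Klf6 (35.2, 28.5 and 33 FPKM in GCB and 2.18, 0 and 2.72 in BMPC). Cdkn2c (p18) read 7.85, 6.09 and 9.0 FPKM in GCB and 11.1, 0 and 0 in BMPC (adjusted p = 0.197) and Cdkn1a (p21) 0.217, 1.34 and 1.18 FPKM in GCB and 5.8, 0.333 and 0 in BMPC. Hypermutation and DNA repair genes were lower in 13 of 20 (median -2.65), or 9 with median of ratios scaling, 7 with sex as a covariate and 4 to 16 with a library left out, where again each GCB library moved the count by more than 1.5 times. Chek2, a checkpoint kinase, read 14.6, 23.1 and 23.9 FPKM in GCB and 0 in all 3 BMPC libraries (log2 change -4.40 ± 0.50, adjusted p = 0.00228). Parp1, a sensor of DNA breaks, read 134, 199 and 136 FPKM in GCB and 35, 0.578 and 12.1 in BMPC (log2 change -4.09 ± 1.06, adjusted p = 0.0275). Ung, which removes uracil from DNA, read 2.47, 11 and 5.31 FPKM in GCB and 0 in all 3 BMPC libraries (log2 change -2.68 ± 0.52, adjusted p = 0.0101). Xrcc6 (Ku70) read 56.8, 45.6 and 40.1 FPKM in GCB and 58.7, 114 and 43.8 in BMPC while its partner Xrcc5 (Ku80) fell, at 24.6, 19.5 and 25.8 FPKM in GCB and 1.68, 0 and 9.5 in BMPC.

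Of the writers, erasers and readers of DNA methylation, 5 of 12 tested were lower and 1 was higher (median -1.97), beside 23.8% lower and 5.62% higher of all genes tested. Dnmt1, the maintenance enzyme left in these cells, read 58.9, 85.4 and 56.5 FPKM in GCB and 1.49, 3.58 and 6.17 in BMPC (log2 change -3.94 ± 0.53, adjusted p = 0.00335). Uhrf1, which brings it to replicated DNA, read 169, 168 and 152 FPKM in GCB and 19.6, 7.68 and 44.8 in BMPC (log2 change -3.02 ± 0.59, adjusted p = 0.0101). Mbd4, a glycosylase for deaminated methylcytosine, read 61.2, 71.5 and 78.3 FPKM in GCB and 3.73, 0.155 and 5.66 in BMPC (log2 change -4.42 ± 0.72, adjusted p = 0.00533). Tet2, which oxidizes methylcytosine, rose, at 0.0666, 0.492 and 1.37 FPKM in GCB and 9.35, 8.19 and 4.49 in BMPC (log2 change 2.37 ± 0.54, adjusted p = 0.0173), a call that was lost without GCB replicate 1 or 2, and Tet3 read 3.52, 3.04 and 2.16 FPKM in GCB and 0.331, 0.865 and 0.995 in BMPC (adjusted p = 0.0598).

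Among metabolic genes, cholesterol and fatty acid synthesis was lower in 11 of 20 members (0 higher, median -1.80) and glycolysis in 10 of 15 (0 higher, median -1.75), or 6 with median of ratios scaling. Both counts fell to as few as 6 without a GCB library. Sqle, squalene epoxidase, read 74.6, 91.6 and 60.9 FPKM in GCB and 3.34, 0 and 0.482 in BMPC (log2 change -5.35 ± 0.66, adjusted p = 0.00267), and Hmgcs1 37.9, 46.8 and 28.2 FPKM in GCB and 0, 0 and 2.45 in BMPC (log2 change -4.65 ± 0.68, adjusted p = 0.00389). Insig1, the brake on sterol synthesis, read 26.9, 24.2 and 24.6 FPKM in GCB and 28, 79.1 and 61 in BMPC (adjusted p = 0.135). Of the glycolytic genes, Pkm read 713, 605 and 629.8 FPKM in GCB and 74.7, 79.9 and 141 in BMPC (log2 change -2.76 ± 0.27, adjusted p = 0.00169). Ldha, lactate dehydrogenase, read 1041, 773 and 845 FPKM in GCB and 339, 207 and 253 in BMPC (log2 change -1.75 ± 0.22, adjusted p = 0.00283). Aldoa read 982, 683 and 791 FPKM in GCB and 352, 237 and 429 in BMPC (log2 change -1.29 ± 0.25, adjusted p = 0.01). Hk2, hexokinase 2, read 7.42, 2.85 and 9.79 FPKM in GCB and 10.6, 28.7 and 10.5 in BMPC (adjusted p = 0.215). Interferon-stimulated genes were mixed, with 5 of 13 tested lower and 1 higher (median -1.81, and 1 to 8 lower with a library left out). Usp18 read 92, 107 and 21.2 FPKM in GCB and 0 in all 3 BMPC libraries (log2 change -5.92 ± 0.73, adjusted p = 0.00265), while Bst2, also known as a surface antigen of plasma cells, rose at 16.9, 24.5 and 10.1 FPKM in GCB and 87.9, 153 and 105 in BMPC (log2 change 2.72 ± 0.43, adjusted p = 0.00487). Of 18 genes that every cell uses, 4 were lower and 1 higher, with a median of -0.64, which lay above that of all genes tested. These counts lay near the 23.8% lower and 5.62% higher of all genes tested.

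The 12 genes that rose most were Car1, Prg2, Ly6c2, Tnfrsf17, Tmem176a, Dntt, Tmem176b, Car2, Ggh, Fcer1g, Oosp1 and Hba-a2. Car1, carbonic anhydrase of red cells, was at least 7098-fold higher. Prg2, best known as the major basic protein of eosinophil granules, read 1.29, 3.1 and 0 FPKM in GCB and 1733, 1391 and 2016 in BMPC (log2 change 9.65 ± 0.53, adjusted p = 0.000179), and of a list of 14 other genes of eosinophils, basophils and mast cells, 11 were listed at 0 in all 6 libraries. Tmem176a and Tmem176b, neighbors in the genome that encode membrane channels, read 0, 0.383 and 0 FPKM in GCB and 269.9, 456 and 529 in BMPC and 0, 1.33 and 3.98 FPKM in GCB and 408, 558 and 619.5 in BMPC. Ggh, which trims folates, read 0, 1.21 and 2.31 FPKM in GCB and 277, 259.9 and 331 in BMPC (log2 change 7.22 ± 0.53, adjusted p = 0.000647). Fcer1g, the Fc receptor gamma chain, read 0, 0.752 and 1.89 FPKM in GCB and 134, 172 and 591 in BMPC (log2 change 7.12 ± 0.71, adjusted p = 0.00169), with the most in replicate 3. Among the 12 genes that fell most were Id3, Rgs13, Ms4a1, Fcrl1, Spib, Rassf6, Ell3, Cd22, Cdc25b, Cxcr5 and Lta. Ell3, a relative of Ell2 above, read 140.4, 131 and 139 FPKM in GCB and 0 in all 3 BMPC libraries (log2 change -7.11 ± 0.43, adjusted p = 0.000322). Lta, lymphotoxin alpha, read 103, 152 and 105 FPKM in GCB and 0, 0 and 0.319 in BMPC (log2 change -6.76 ± 0.47, adjusted p = 0.00054). Cdc25b, a phosphatase that starts mitosis, read 122, 111 and 145 FPKM in GCB and 0, 0 and 0.282 in BMPC (log2 change -6.86 ± 0.45, adjusted p = 0.000428).

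In Dnmt3-sufficient mice the same fit called 608 genes higher (6.17%) and 1882 lower (19.1%) of the same 9861. The sufficient BMPC libraries held 2196198, 3803197 and 3629318 reads, and replicates 2 and 3 were deeper than every deficient BMPC library. Their erythroid markers summed to 6653 to 9905 FPKM, against 2653 to 6558 in deficient BMPC. The part of depth and of other cells in the differences between genotypes was not tested. Genes higher in both genotypes numbered 354, which is 63.9% of those in deficient and 58.2% of those in sufficient cells. Genes lower in both numbered 1036 (44.2% and 55.0%). None was higher in deficient and lower in sufficient cells, and 2, Nudt9 and Bag1, passed as lower in deficient and higher in sufficient cells (Bag1, a co-chaperone, was named after its values were seen). Across the 9861 genes the changes correlated with Pearson's r of 0.762 and Spearman's rho of 0.698, as a description, since genes are not replicates. A call in 1 genotype only is no test of a difference. The change itself differed between genotypes in 7 genes (0.071%) by the interaction term, with 687 at an unadjusted p under 0.05. The median standard error of that difference was 0.95, against 0.60 for the deficient change, and differences small beside that error were not detectable. With the replicate number shared by GCB titles of the 2 genotypes as a block, limma called 0 genes (453 had an unadjusted p under 0.05). Without any 1 of the 6 GCB libraries 0 or 1 gene passed, and without 1 of the BMPC libraries 15 to 102.

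No member of any gene list passed the interaction. Xbp1 in sufficient libraries read 15.8, 20.3 and 27.4 in GCB and 716, 738 and 559 in BMPC (log2 change 4.95 ± 0.25, limma adjusted p = 0.000334). The difference of its changes, deficient minus sufficient, was 0.92 ± 0.38 (adjusted p = 0.664). Irf4 passed in the sufficient libraries, at 7.36, 2.18 and 5.47 in GCB and 37.3, 55.2 and 44.1 in BMPC, but the difference between genotypes did not (-2.84 ± 1.32, adjusted p = 0.715). Prdm1 was the reverse, at 0.517, 0.12 and 0.783 and 0.838, 14.5 and 6.14 in sufficient cells, with a difference of 2.18 ± 1.14 (adjusted p = 0.729). Plasma cell surface proteins were higher in 9 of 13 in sufficient cells, germinal center genes lower in 14 of 17, and mitosis genes in 25 of 37. Hypermutation and DNA repair genes were lower in 6 of 20 there, and genes of cholesterol and fatty acid synthesis in 5 of 20 with 1 higher.

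Of the 7 genes that passed, Rnase2a, an eosinophil-type ribonuclease, Rab3b, a GTPase of secretory vesicles, and AB124611 and Zfp472 changed more upward in deficient cells. Rnase2a was listed at 0 in all GCB libraries and in the 3 sufficient BMPC libraries, and read 17.8, 26.7 and 23 in deficient BMPC. Genes were chosen for testing by their level in deficient libraries alone, so Rnase2a entered only through the group in which it was high. Genes detected only in sufficient libraries could not enter. With the filter over all 12 libraries, chosen after seeing the data, 10770 genes were tested and 13 passed the interaction. Rab3b read 14.9, 12.6 and 9.25 in deficient BMPC and was listed at 0 in sufficient BMPC. AB124611 and Zfp472 did not pass in deficient cells (20.2, 30.9 and 20.3 FPKM in GCB and 25.7, 34.7 and 22.8 in BMPC for Zfp472) and fell in sufficient cells, where Zfp472 read 24.7, 16.8 and 13.1 in GCB and 0.195, 0 and 0 in BMPC. Haus7, of the augmin complex that builds the spindle, read 51.7, 53.6 and 64.3 FPKM in GCB and 0 in all 3 BMPC libraries in deficient cells and kept 21.3, 39.3 and 29.1 in sufficient BMPC. Nudt9, an ADP-ribose hydrolase, read 12.4, 13.4 and 25.5 FPKM in GCB and 1.38, 0 and 0 in BMPC in deficient cells against 41.3, 62.1 and 56.6 in sufficient BMPC. The last was Snord49a, a small nucleolar RNA of 62 bases, at 21.3, 45.9 and 11 FPKM in GCB and 0 in all 3 BMPC libraries in deficient cells against 29.4, 42.4 and 138 in sufficient BMPC. On a kilobase of exon the floor of 3 reads is 1.84, 2.21 and 1.32 FPKM in the deficient BMPC libraries, and it rises as the exon shortens. On so short an RNA it lies among the deficient GCB values, so the size of the fall of Snord49a in deficient cells is not measured. In each of the 7 genes except Nudt9 and Zfp472, the lower of the 2 BMPC groups was listed at 0 in every library.

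**Figure D5:**
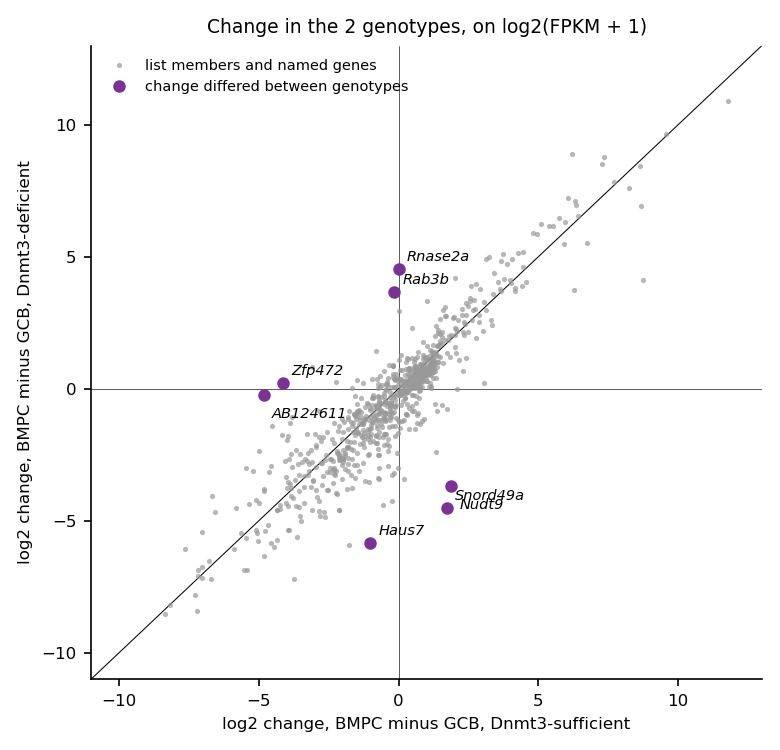
Log2 change from GCB to BMPC (log2(FPKM + 1) scale) in Dnmt3-deficient cells against the same change in Dnmt3-sufficient cells, 1 point per tested list member or named gene, with a line where the changes are equal and the genes that passed the interaction named. Over all 9861 genes tested Pearson's r was 0.762, and the 7 named genes lie off the diagonal.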

How the data were processed

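The authors trimmed reads after FastQC and aligned them by TopHat against mm9, with the limit on multiple hits set to 1. They counted reads over the exons of UCSC KnownGenes with summarizeOverlaps. The deposited FPKM values are these counts per kilobase of exon, scaled by the total of counted reads. The submitters' processing notes name R 3.2.2, edgeR 3.12.1 and Picard. Whether counting used the strand is not given in the sources used here, so overlapping and antisense genes are uncertain. The table held 21761 genes, 92 without a symbol, 0 value columns of unknown samples, and 54 columns of the authors' comparisons (log2 fold changes, p-values and FDR), which were not used. Multiplied by exon length, 100% of values were whole multiples of 1 read (tolerance 0.001), from which reads were recovered. RNA was amplified by 13 cycles as cDNA and 12 as library, without molecular identifiers, so floors cover counting error only.

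Groups and sex came from the labels. Replicate numbers followed the accession order. The 6 Dnmt3-deficient libraries were fitted with limma 3.58.1 in R 4.3.3 on log2(FPKM + 1), which understates changes of low genes, with lmFit and eBayes with an intensity trend, for 9861 genes with FPKM over 1 in at least 2 of the 6 libraries, two-sided, with Benjamini-Hochberg adjustment over all of them. The same genes were fitted in the 6 Dnmt3-sufficient libraries and, with an interaction term, in all 12. A set of simulated libraries with known changes was used to test the fit. Folds are ratios of mean FPKM. Where all libraries of a group had 3 reads or fewer, the fold was computed with each at 3 reads and given as "at least". Genes named were the 12 with the largest rise and fall without overlap, the markers of each cell type, the members of each list with the largest called change or the highest mean, the genes that passed the interaction, and list members that did not pass or hold a promoter motif. A few genes that this rule names are not reported here. Members and lists were chosen with earlier results of these data known. Families of ribosomal, respiratory, proteasome, histone, chaperonin, MHC class I and eosinophil, basophil and mast cell genes, 1 weight per cell type, and a filter over all 12 libraries were chosen after seeing the data. Promoter sequences were RefSeq's, matched by symbol, and their build (GRCm38.p6) differs from the files' mm9. Gene positions on mm9 came from the reference annotation. Figures were drawn with matplotlib 3.10.9.

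The alternatives tried were no filter, a pseudocount of 0.1, FPKM over 3 in at least 3 libraries, a mean FPKM over 1, median of ratios scaling, totals without Jchain, a fit to all 18 libraries, a quality weight per library, sex as a covariate, voom on recovered reads, GCB reads thinned to BMPC depth, an adjusted p of 0.01, no minimum change, and leaving out each library.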

Additional observations from a re-analysis of the deposited data

Results flagged for a closer look

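The change from GCB to BMPC differed between genotypes, by the interaction term in limma over 12 libraries, in 7 genes. The difference (deficient minus sufficient, log2(FPKM + 1) scale) was 4.54 ± 0.48 for Rnase2a (adjusted p = 0.00588), 3.82 ± 0.47 for Rab3b (adjusted p = 0.0113), 4.59 ± 0.63 for AB124611 (adjusted p = 0.023) and 4.35 ± 0.67 for Zfp472 (adjusted p = 0.0407). It was -4.81 ± 0.57 for Haus7 (adjusted p = 0.0106), -5.55 ± 0.78 for Nudt9 (adjusted p = 0.0245) and -6.26 ± 0.92 for Snord49a (adjusted p = 0.0307). With the number in the GCB titles as a replicate block none of the 7 passed (adjusted p of 0.0626 to 0.227). In each gene the 3 deficient and the 3 sufficient BMPC libraries did not overlap. The genes were chosen by a test on these same libraries, so that separation adds no support. Rnase2a entered the test only through deficient BMPC, where it was high. Snord49a lost its call on the deficient change under some alternatives, with an adjusted p of up to 0.112. Its floor in deficient BMPC lay among its deficient GCB values, so the size of its difference is uncertain.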

How the results depend on the processing

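No paired analysis was possible because replicate numbers of BMPC followed the accession order and GCB and BMPC libraries came from different mice. Numbers in the GCB titles are shared between genotypes, and the interaction with that replicate block called 0 genes (453 at an unadjusted p under 0.05, against 687 without the block). At an adjusted p of 0.01, the fit called 311 higher and 1048 lower genes with Dnmt3 deficiency and 377 and 980 without it. Leaving out each library gave 373 to 757 higher and 1397 to 2957 lower genes in deficient cells, and 397 to 732 higher and 1151 to 2318 lower genes in sufficient cells, where GCB replicate 1 gave 397 and 1151 and GCB replicate 2 gave 1239 lower. With fewer samples the fit has fewer residual degrees of freedom, but the cause of the difference between GCB and BMPC libraries was not tested. The 7 interaction genes became 13 with a pseudocount of 0.1, 19 without a filter, 38 in a fit to all 18 libraries, 1 with a quality weight per library, 40 with voom, 1 at an adjusted p of 0.01 and 13 with the filter over all 12 libraries, chosen after seeing the data. Leaving out a library gave 0 to 102 interaction genes. There were 0 without deficient GCB replicate 1 or 2 or any sufficient GCB library (458 to 544 at an unadjusted p under 0.05), 1 without deficient GCB replicate 3, 102, 33 and 33 without deficient BMPC replicates 1, 2 and 3, and 22, 15 and 21 without sufficient BMPC replicates 1, 2 and 3. The fit to all 18 libraries called 3102 lower genes in deficient cells, and the other alternatives 442 to 710 higher and 1765 to 2394 lower. Of 334 called genes among the lists and named genes, none reversed. An adjusted p of 0.01 lost 128 of these calls, sex as a covariate 56, median of ratios scaling 49, a pseudocount of 0.1 47, voom 43 and no filter 39. Leaving out a GCB library lost 96, 108 and 96, and leaving out a BMPC library 24, 20 and 24. The shallow BMPC libraries limit low genes, for which the floor is 3 reads per library.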

Other observations

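Gene families chosen after seeing the data described parts of the cell that the lists above do not hold. Over all genes tested, 5.62% were higher and 23.8% lower. Of 81 cytosolic ribosomal proteins tested, 7 were higher in Dnmt3-deficient BMPC and 0 lower, 52 lay above GCB in all 3 libraries, and the median change was 0.57, against -0.96 for all genes tested. With median of ratios scaling 32 were higher. Their summed level was 51682 to 65318 FPKM in GCB and 78328 to 102463 in BMPC. Rps14 read 1780.1, 1256 and 1569 FPKM in GCB and 3672, 2984 and 4249.8 in BMPC (log2 change 1.24 ± 0.17, adjusted p = 0.00346). Mitochondrial ribosomal proteins had 1 of 74 higher and 3 lower, or 2 and 2 with median of ratios scaling. Subunits of respiratory complex I were higher in 4 of 36 and lower in 2 (median 0.49), or 11 and 1 with median of ratios scaling. Ndufa1 read 357, 218 and 316 FPKM in GCB and 839.7, 939.9 and 999.9 in BMPC (log2 change 1.66 ± 0.21, adjusted p = 0.00278). Among cytochrome c oxidase and ATP synthase subunits 3 of 29 were higher and 4 lower, or 6 and 2 with median of ratios scaling. The largest rise there, 6.45, was that of Cox6a2, which is also in the plasmacytoid dendritic cell list. Atp5a1, of the catalytic head, read 520.4, 557 and 568 FPKM in GCB and 123, 149.9 and 191 in BMPC (log2 change -1.84 ± 0.20, adjusted p = 0.00215).

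The chaperonin that folds actin and tubulin had 6 of 8 subunits lower and 0 higher (median -1.08), but 0 lower with median of ratios scaling. Cct5 read 750.5, 630.04 and 726 FPKM in GCB and 482, 229 and 335 in BMPC (log2 change -1.07 ± 0.27, adjusted p = 0.0249). Proteasome subunits were lower in 7 of 38 and higher in 0 (median -0.59), against 23.8% lower and a median of -0.96 for all genes tested, or 2 lower and 1 higher with median of ratios scaling, and Psmd12 read 228, 192 and 220.01 FPKM in GCB and 89.9, 95.9 and 78.6 in BMPC (log2 change -1.27 ± 0.21, adjusted p = 0.00579). In the MHC class I pathway, 2 of 16 members tested were higher, 1 was lower and 13 did not pass (median 0.01). With median of ratios scaling 4 were higher and 1 lower. B2m rose, at 479, 400.3 and 463 FPKM in GCB and 3576, 3865 and 3323 in BMPC (log2 change 3.001 ± 0.11, adjusted p = 8.01e-05), and H2-Q7 rose, while the peptide transporter Tap1 fell, at 31.4, 48.9 and 39.5 FPKM in GCB and 5.44, 3.14 and 1.47 in BMPC (log2 change -3.32 ± 0.54, adjusted p = 0.00539). Among replication-dependent histones 2 of 31 tested were higher and 6 lower (median -0.54), near the 5.62% higher and 23.8% lower of all genes tested. Hist1h1b read 56.9, 23.4 and 47.9 FPKM in GCB and 13.7, 11 and 4.6 in BMPC (log2 change -2.04 ± 0.57, adjusted p = 0.0345). Hist1h2bc, which is also transcribed outside S phase, read 11.7, 9.86 and 14 FPKM in GCB and 51.3, 60.8 and 47.9 in BMPC (log2 change 2.09 ± 0.36, adjusted p = 0.00676). Vacuolar ATPase subunits had 1 of 17 higher and 2 lower, or 4 and 1 with median of ratios scaling.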
